A study of Rattus norvegicus with 12 samples.

Results

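The Hox genes and the Meis, Pbx and Irx genes were followed across cultured neural stem cells (NSCs) from rat spinal cord and brain. They were taken as every probe set of the Affymetrix Rat230_2 array whose platform annotation gives a single gene symbol, and that symbol is Hox with a cluster letter and a number, or Meis, Pbx or Irx with a number. This gave 40 of the 31042 probe sets that are not controls. They stand for 33 of the 14217 gene symbols so annotated, of which 22 are Hox genes with 24 probe sets and 11 are Meis, Pbx or Irx genes with 16 probe sets. The Hox genes measured were Hoxa5, Hoxa7, Hoxa9, Hoxa10, Hoxa11, Hoxb2, Hoxb3, Hoxb4, Hoxb6, Hoxb7, Hoxb13, Hoxc4, Hoxc5, Hoxc8, Hoxc9, Hoxd1, Hoxd3, Hoxd4, Hoxd8, Hoxd9, Hoxd10 and Hoxd11. The others were Meis1 to Meis3, Pbx2 to Pbx4 and Irx1 to Irx5. Other Hox paralogues were not analysed here.

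RNA was measured on 12 arrays in 4 groups of 3: differentiated spinal cord, proliferative spinal cord, differentiated brain and proliferative brain cultures. All cells came from Sprague Dawley rats at postnatal day 3 to 5, and the labels name no allele and no agent in any group. The way the cells were differentiated, the days it took and whether animals were pooled are unknown here. The labels do not tell whether the 3 arrays of each group are from different animals or cultures, and the spread behind every p-value is that among the arrays and may be technical. In RNA from whole cultures, fewer cells of a type and less RNA per cell cannot be told apart.

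Hox proteins are transcription factors that give cells their position along the head-to-tail axis. Their genes lie in the Hoxa, Hoxb, Hoxc and Hoxd clusters, and low paralogue numbers are expressed from the hindbrain backwards while high numbers are expressed in lumbar and sacral levels. In the spinal cord they set, among others, which muscles a motor neuron pool innervates, and the forebrain and midbrain lack them. Meis, Pbx and Irx proteins belong to the TALE class of homeodomain proteins, which carry an extended loop in the homeodomain. Meis and Pbx proteins bind DNA together with Hox proteins, and Irx proteins pattern the neural tube, the heart and the limb.

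The values are log2 signals of a probe set, scaled on each array by itself. A gene with several probe sets is given by the one with the highest mean over the 12 arrays. Signals of different probe sets were not compared with each other, since each binds its transcript with its own strength. A gene is called dim in a group when all 3 arrays of the group lay under their own 40th percentile, which was 5.91 to 6.41 on the 12 arrays. Array medians were 6.87 to 7.22 and the highest signals 14.8 to 15.2. Against a dim group only a lower limit is given, as "at least", counted from the higher of the array's 40th percentile and the gene's own signal. Differences were tested with limma across 20834 probe sets, with adjusted p under 0.05 as the threshold. An adjusted p beside a lower limit is for the whole difference of the signals, and the limit itself was not tested.

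The cultures carried markers of several cell types. Of 9 neural progenitor markers on the array, Sox1 was dim in all 4 groups and Hes5 was dim in all groups but differentiated brain, while Nes, Sox2, Vim and Fabp7 were not dim in any group. The summed linear signal of 14 fibroblast, meningeal and mural cell markers was 102479 to 117632 in differentiated and 24982 to 49182 in proliferative spinal cord cultures, against 2147 to 2631 in differentiated and 1354 to 2608 in proliferative brain cultures. Rgs5 of that list was dim in all 4 groups, Foxc1 was dim in all but differentiated spinal cord, and 7 of the 14 were dim in differentiated brain. The summed signal of 7 oligodendrocyte markers was 54479 to 63361 in differentiated and 50351 to 55061 in proliferative spinal cord cultures, against 52348 to 62397 in differentiated and 3172 to 6686 in proliferative brain cultures. The part of these cell types in the results below was not tested.

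These promoters are printed because the results turn on their genes. Hoxa9 and Hoxd8 had the lowest adjusted p of the Hox genes between the tissues in both states, and Irx1 and Irx2 are neighbours whose signals fell together in differentiated spinal cord cultures. The sequences are RefSeq's, build GRCr8, from 250 bases before to 50 bases after the annotated start, read along the gene's strand, with CG dinucleotides in capitals. The regions are chr4:82656999-82657298 on the minus strand for Hoxa9, chr3:80014973-80015272 on the plus strand for Hoxd8, chr1:33122872-33123171 on the plus strand for Irx1 and chr1:32494881-32495180 on the minus strand for Irx2.
Hoxa9: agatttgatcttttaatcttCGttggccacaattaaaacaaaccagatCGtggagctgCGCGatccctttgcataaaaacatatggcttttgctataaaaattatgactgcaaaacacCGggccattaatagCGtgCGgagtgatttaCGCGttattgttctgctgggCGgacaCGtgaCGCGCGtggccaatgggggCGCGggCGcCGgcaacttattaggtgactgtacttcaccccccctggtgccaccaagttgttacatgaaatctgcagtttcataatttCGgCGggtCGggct
Hoxd8: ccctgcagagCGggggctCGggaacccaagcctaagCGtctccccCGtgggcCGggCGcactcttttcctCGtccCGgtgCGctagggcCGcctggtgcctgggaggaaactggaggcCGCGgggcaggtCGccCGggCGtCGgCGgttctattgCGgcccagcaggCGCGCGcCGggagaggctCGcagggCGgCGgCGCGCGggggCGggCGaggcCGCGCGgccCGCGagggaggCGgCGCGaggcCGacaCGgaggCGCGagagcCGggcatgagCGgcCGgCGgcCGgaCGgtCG
Irx1: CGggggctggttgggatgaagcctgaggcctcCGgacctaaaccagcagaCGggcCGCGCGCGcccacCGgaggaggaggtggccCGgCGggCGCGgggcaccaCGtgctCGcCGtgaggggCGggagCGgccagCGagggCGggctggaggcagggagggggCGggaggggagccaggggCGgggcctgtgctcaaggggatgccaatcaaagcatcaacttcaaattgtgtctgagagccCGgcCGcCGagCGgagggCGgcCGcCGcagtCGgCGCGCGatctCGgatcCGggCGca
Irx2: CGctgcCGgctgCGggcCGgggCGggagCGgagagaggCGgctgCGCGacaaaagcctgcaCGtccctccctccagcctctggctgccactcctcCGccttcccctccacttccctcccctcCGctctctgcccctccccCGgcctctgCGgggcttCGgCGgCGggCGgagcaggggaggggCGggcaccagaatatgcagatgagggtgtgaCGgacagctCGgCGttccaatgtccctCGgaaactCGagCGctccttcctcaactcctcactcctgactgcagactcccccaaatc
The Hoxa9 promoter held 21 CG dinucleotides, Hoxd8 held 49, Irx1 held 35 and Irx2 held 25. An entry was found for 20 of the 33 genes, with 22 promoters in all. Their median was 21.5 CG dinucleotides (range 5 to 49), against a median of 7 over the 33469 promoters of the table. The Pbx and Hox pair motif TGATNNAT, searched on both strands, was in 2 of the 22 promoters, Hoxa7 and Hoxd11, and in 9.1% of all promoters. The Meis motif TGACAG was in 0 of the 22 and in 18.97% of all, and the homeodomain motif TAATTA was in 1 of the 22, Hoxd11, and in 5.36% of all. These are matches of letters in a window of 300 bases and were not tested as binding sites.

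Every measured Hox gene with a paralogue number from 2 to 10, 18 genes in all, was above the 40th percentile on all 6 spinal cord arrays. Of these 18 genes, 17 were below it on all 6 brain arrays, and the exception was Hoxb3. By this limit the picture differed at both ends of the numbering: Hoxd1, Hoxd11 and Hoxb13 were dim in all 4 groups. Hoxa11 was above the 40th percentile on 5 of 6 spinal cord arrays and on no brain array. Below the limit, Hoxd1 read 5.06 to 5.69 on the 6 spinal cord arrays and -0.23 to 2.92 on the 6 brain arrays, with no overlap. Hoxd1 did not pass the filter, so this difference was not tested. For Hoxd11 and Hoxb13 the arrays of the tissues overlapped. In all, 21 of the 22 Hox genes were dim in both brain groups, and 2 of the 11 TALE genes, Irx2 and Irx4, were too. With the 30th percentile as the limit 13 of the 22 Hox genes and none of the TALE genes were dim in both brain groups, and with the 50th all 22 and 4 TALE genes were.

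Between proliferative cultures, 19 of the 19 Hox genes tested were higher in spinal cord, where 19.4% of all probe sets tested were higher and 18.5% lower. Between differentiated cultures 18 of 19 were higher, where 18.5% of all were higher and 22.9% lower. These counts are a description: 18 of the 19 genes passed the filter on low signals through spinal cord arrays alone, a choice that favours genes higher in spinal cord. Of 7 forebrain and midbrain transcription factors tested, 7 were lower in spinal cord and 0 higher between proliferative cultures (limma; 0 higher at an unadjusted p too), and 5 were lower and 2 not called between differentiated ones. These counts too are a description, since Emx2, for one, was dim in both spinal cord groups and passed the filter through brain arrays alone. Between proliferative cultures, those with the largest differences were Lhx2, 70.0-fold lower (adjusted p = 2.82e-05, limma), Dlx1, 21.9-fold lower (1.66e-06), and Emx2, at least 15.9-fold lower (7.66e-05).

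In the Hoxa cluster, Hoxa5, which with Hoxc5 maintains the motor neurons of the diaphragm in mice, was read far above brain in both states. Hoxa5 read 12.03, 12.02 and 11.85 in differentiated and 11.20, 11.52 and 11.41 in proliferative spinal cord cultures, against 2.38, 4.52 and 0.13 in differentiated and 1.87, 2.39 and 1.58 in proliferative brain cultures. Differentiated spinal cord cultures were at least 50.9-fold above differentiated brain (adjusted p = 1.84e-07, limma) and proliferative ones at least 38.5-fold above proliferative brain (4.11e-07). The 6 spinal cord arrays lay close together and all 6 brain values were below the 40th percentile.

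Hoxa7 read 9.91, 9.76 and 9.50 in differentiated and 8.67, 9.32 and 9.59 in proliferative spinal cord cultures, against 1.76, 1.56 and 2.02 in differentiated and 2.76, 0.98 and 2.34 in proliferative brain cultures. Hoxa9 read 10.01, 9.98 and 10.18 in differentiated and 10.75, 10.94 and 10.91 in proliferative spinal cord cultures, against 1.47, 0.39 and -0.57 in differentiated and 0.30, 0.36 and 0.30 in proliferative brain cultures. The lower limits for Hoxa7, a trunk gene, were 10.8-fold between differentiated (adjusted p = 1.94e-08, limma) and 8.48-fold between proliferative cultures (9.46e-08). For Hoxa9, a gene of thoracic and lumbar levels, they were 13.6-fold between differentiated (4.72e-09) and 27.1-fold between proliferative cultures (4.8e-09).

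Hoxa10 read 7.53, 8.25 and 8.56 in differentiated and 10.04, 10.26 and 10.24 in proliferative spinal cord cultures, against 5.02, 4.38 and 2.03 in differentiated and 4.68, 2.51 and 3.62 in proliferative brain cultures. Hoxa11 read 5.35, 6.48 and 6.88 in differentiated and 7.44, 7.59 and 7.24 in proliferative spinal cord cultures, against 6.24, 5.98 and 5.25 in differentiated and 5.31, 6.15 and 4.95 in proliferative brain cultures. Hoxa10, which with Hoxd10 specifies lumbar motor neurons in mice, was at least 3.52-fold higher in differentiated spinal cord than differentiated brain (adjusted p = 0.000147, limma) and at least 16.8-fold higher between proliferative cultures (5.13e-06). Hoxa11, known for the forearm and kidney, was at least 2.49-fold higher in proliferative spinal cord than proliferative brain (0.00313), and in differentiated cultures its arrays overlapped with brain, with a log2 difference of 0.41 (95% confidence interval -0.53 to 1.35, adjusted p = 0.483).

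In the Hoxb cluster, Hoxb2 and Hoxb3 are genes of the hindbrain segments and backwards. Hoxb2 read 9.78, 9.74 and 10.001 in differentiated and 10.37, 10.65 and 10.80 in proliferative spinal cord cultures, against 4.50, 4.93 and 5.04 in differentiated and 4.98, 2.54 and 2.05 in proliferative brain cultures. Hoxb3 read 8.01, 8.70 and 8.42 in differentiated and 7.80, 7.66 and 7.54 in proliferative spinal cord cultures, against 6.01, 5.92 and 6.50 in differentiated and 5.84, 5.71 and 6.01 in proliferative brain cultures. Hoxb2 was at least 11.6-fold higher in differentiated spinal cord cultures than in differentiated brain ones (adjusted p = 5.2e-06, limma) and at least 22.6-fold higher between proliferative cultures (2.22e-07). Hoxb3 was the single Hox gene not dim in brain, because 1 differentiated array at 6.50 and 1 proliferative array at 6.01 lay above their 40th percentiles. It was 4.69-fold higher between differentiated (5.19e-06) and 3.51-fold higher between proliferative cultures (5.27e-05), and its spinal cord and brain arrays did not overlap.

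Hoxb4 read 7.90, 7.95 and 8.26 in differentiated and 8.05, 8.65 and 8.52 in proliferative spinal cord cultures, against 2.99, 2.54 and 2.21 in differentiated and 3.31, 3.21 and 1.65 in proliferative brain cultures. Hoxb6 read 9.72, 9.81 and 9.74 in differentiated and 9.67, 10.25 and 10.06 in proliferative spinal cord cultures, against 4.82, 5.01 and 5.86 in differentiated and 4.96, 5.66 and 4.93 in proliferative brain cultures. Hoxb7 read 8.57, 9.07 and 8.75 in differentiated and 8.56, 8.16 and 8.26 in proliferative spinal cord cultures, against 1.65, 1.51 and 3.34 in differentiated and 3.88, 3.11 and 1.55 in proliferative brain cultures. All of these genes, of cervical and trunk levels, were clear of the brain arrays in both states. Hoxb4 was at least 3.33-fold higher between differentiated and 4.92-fold between proliferative cultures, Hoxb6 10.99-fold and 14.8-fold, and Hoxb7 5.65-fold and 4.66-fold in the same order, with adjusted p from 1.25e-05 down to 2.56e-08 (limma). Hoxb13, a gene of the tail end of the body, gave 2.32, 2.37 and 1.14 in differentiated and 1.46, 0.88 and 1.39 in proliferative spinal cord cultures, so it was dim there as in brain.

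In the Hoxc cluster, Hoxc4 and Hoxc5 belong to cervical levels, Hoxc8 to brachial motor pools and Hoxc9 to thoracic motor columns, where it represses the limb programme in mice. Hoxc4 read 9.17, 9.29 and 9.27 in differentiated and 9.36, 9.96 and 9.91 in proliferative spinal cord cultures, against 5.04, 5.07 and 4.23 in differentiated and 4.07, 4.51 and 3.68 in proliferative brain cultures. Hoxc5 read 9.76, 9.97 and 9.92 in differentiated and 8.11, 8.08 and 8.39 in proliferative spinal cord cultures, against 0.77, 1.16 and 0.71 in differentiated and 2.88, 0.81 and 1.90 in proliferative brain cultures. Hoxc4 was at least 7.70-fold higher in differentiated spinal cord than differentiated brain cultures (adjusted p = 4.45e-08, limma) and at least 12.4-fold higher between proliferative ones (1.14e-08). Its other tested probe set gave 8.10, 7.41 and 7.89 in differentiated and 4.52, 7.17 and 7.75 in proliferative spinal cord cultures, so proliferative replicate 1 stood below its partners there. Hoxc5 was at least 12.01-fold higher between differentiated (2.07e-08) and 4.25-fold between proliferative cultures (9.75e-07).

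Hoxc8 read 9.63, 9.73 and 9.82 in differentiated and 8.49, 9.03 and 9.39 in proliferative spinal cord cultures, against 5.01, 3.38 and 4.62 in differentiated and 3.20, 3.85 and 3.41 in proliferative brain cultures. Hoxc9 read 9.39, 9.44 and 9.48 in differentiated and 8.23, 8.76 and 8.91 in proliferative spinal cord cultures, against 1.27, 4.51 and 2.04 in differentiated and 2.23, 1.10 and 1.23 in proliferative brain cultures. Both genes were lowest, among spinal cord arrays, on proliferative replicate 1, and every spinal cord array was above every brain array. Hoxc8 was at least 10.8-fold higher between differentiated (adjusted p = 1.01e-07, limma) and 7.27-fold between proliferative cultures (1.64e-07). Hoxc9 was at least 8.79-fold higher between differentiated (2.36e-06) and 5.75-fold between proliferative cultures (2.74e-06).

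The Hoxd cluster held genes from upper cervical to lumbar levels. Hoxd8 read 10.51, 10.50 and 10.23 in differentiated and 10.29, 10.75 and 10.67 in proliferative spinal cord cultures, against 5.73, 4.66 and 4.83 in differentiated and 4.58, 4.97 and 4.58 in proliferative brain cultures. Hoxd3 read 7.86, 7.41 and 7.14 in differentiated and 6.77, 7.03 and 6.83 in proliferative spinal cord cultures, against 5.52, 5.27 and 5.32 in differentiated and 5.21, 4.96 and 3.69 in proliferative brain cultures. Hoxd8, a trunk gene, was at least 17.3-fold higher between differentiated (adjusted p = 2.7e-09, limma) and 22.1-fold between proliferative cultures (2.57e-09). Hoxd3, of upper cervical levels, was at least 2.25-fold higher between differentiated (0.000691) and 1.70-fold between proliferative cultures (0.000509).

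Hoxd4 read 7.95, 8.04 and 7.63 in differentiated and 7.17, 7.55 and 7.17 in proliferative spinal cord cultures, against 5.98, 5.44 and 5.74 in differentiated and 5.52, 3.85 and 2.19 in proliferative brain cultures. Hoxd9 read 7.65, 7.85 and 8.10 in differentiated and 7.44, 7.69 and 7.58 in proliferative spinal cord cultures, against 2.82, 1.43 and 2.25 in differentiated and 4.35, 5.55 and 2.67 in proliferative brain cultures. Hoxd10 read 7.63, 7.94 and 8.08 in differentiated and 7.83, 7.79 and 7.68 in proliferative spinal cord cultures, against 1.06, 5.51 and 4.25 in differentiated and 5.32, 4.91 and 5.30 in proliferative brain cultures. Spinal cord arrays lay above brain arrays for each of these genes, with no overlap. Hoxd4 was at least 2.98-fold higher between differentiated (adjusted p = 0.0101, limma) and 2.27-fold between proliferative cultures (0.000507). Hoxd9 was at least 2.96-fold (7.13e-06) and 2.76-fold higher (0.000883) in the same order, and Hoxd10, a determinant of lumbar motor neurons in mice, at least 3.00-fold (0.000553) and 3.16-fold (0.0177). Without proliferative brain replicate 2 the adjusted p of Hoxd10 between proliferative cultures was 0.0512.

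**Figure D1:**
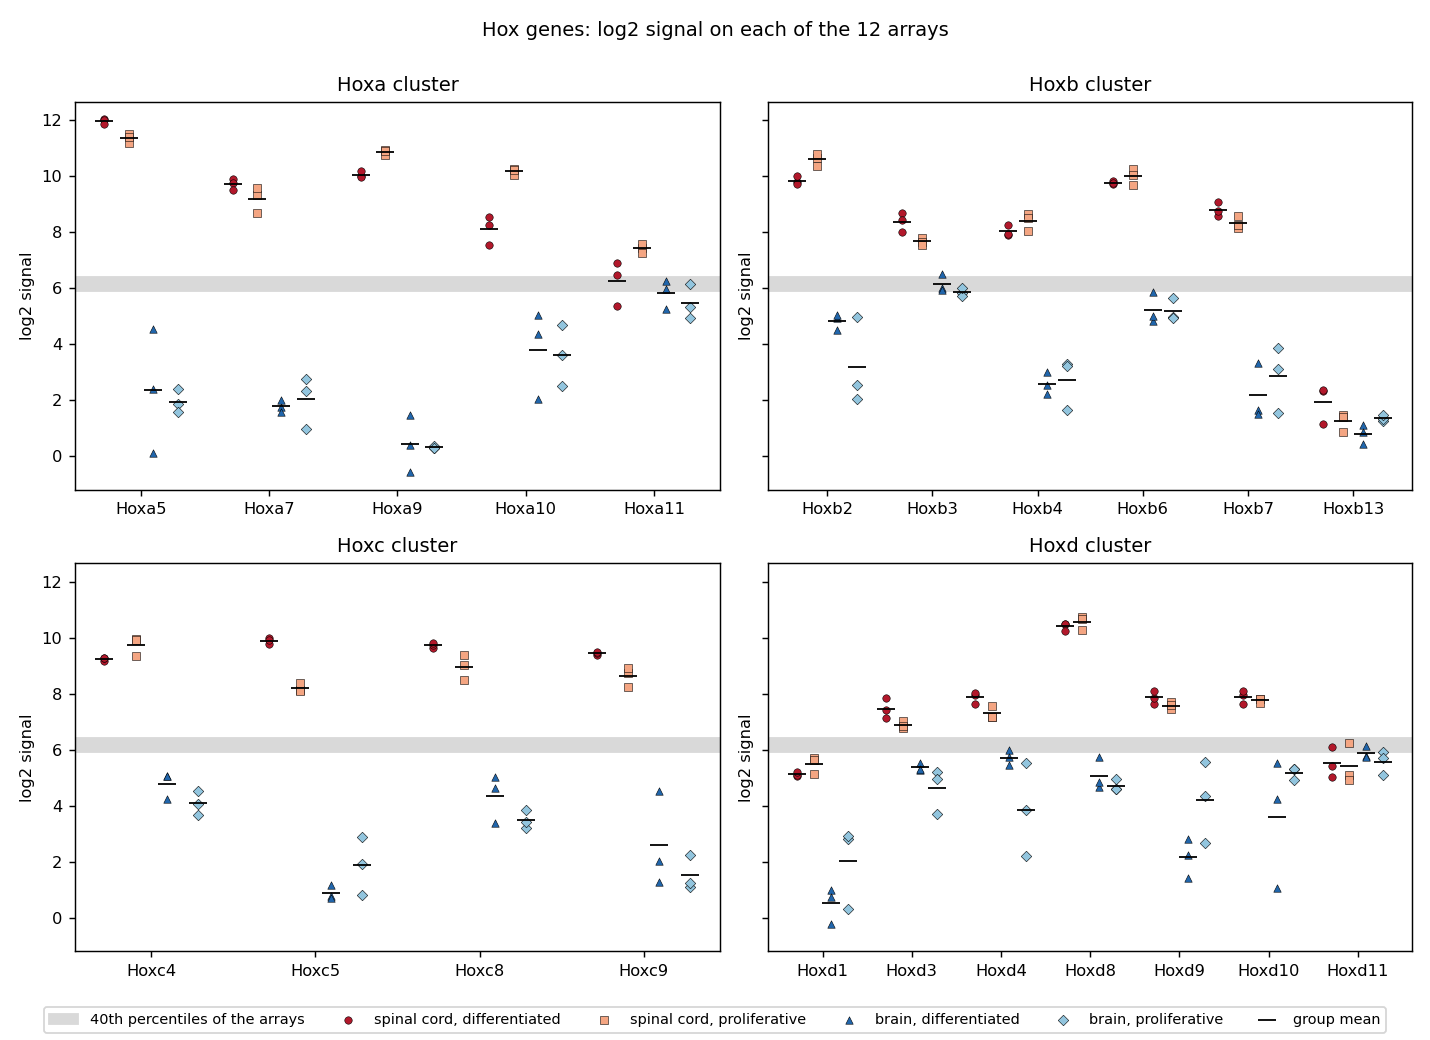
Log2 signal of the 22 Hox genes on each of the 12 arrays, by cluster and in order of paralogue number, with 1 point per array, a line at the mean of each group and a grey band over the 40th percentiles of the arrays (5.91 to 6.41). The 18 genes numbered 2 to 10 lie above the band on all 6 spinal cord arrays, and Hoxd1, Hoxd11 and Hoxb13 lie at or below it in all groups.

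Within spinal cord cultures, the number of Hox genes that passed the test with differentiation depended on the arrays in the fit. In the fit to all 12 arrays 2 of 19 Hox genes rose, Hoxb3 and Hoxc5, and 2 fell, Hoxa10 and Hoxa11, where 18.3% of all probe sets tested were higher and 22% lower, so the Hox shares were below those of all probe sets. Hoxc5 rose 3.23-fold (log2 1.69, adjusted p = 0.0228, limma) and Hoxb3 1.63-fold (0.71, 0.0299). Hoxa10 was 4.19-fold lower in differentiated cultures (-2.07, 0.0242) and Hoxa11 2.27-fold lower (-1.18, 0.0444). The arrays of the 2 states did not overlap for any of these. In this fit to all arrays the calls were near the threshold: leaving out any 1 of the 6 spinal cord arrays put Hoxc5 at an adjusted p of 0.0648 to 0.111, and the calls of Hoxa10, Hoxb3 and Hoxa11 were also lost without single arrays. For Hoxa10 these were differentiated replicates 1 and 2 and proliferative replicates 2 and 3, with adjusted p of 0.0522 to 0.0929, and for Hoxb3 differentiated replicates 2 and 3 and proliferative replicates 2 and 3, with 0.0677 to 0.134. For Hoxa11 they were every spinal cord array but differentiated replicate 3, differentiated brain replicate 2 and proliferative brain replicate 1, with 0.0525 to 0.197.

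The spread used in that fit is shared with the brain arrays, where nearly all Hox probe sets are dim. Hoxa5, for example, had an SD of 0.10 in differentiated and 0.16 in proliferative spinal cord cultures, against 2.20 in differentiated and 0.41 in proliferative brain cultures (n = 3 each). The same comparison was therefore also fitted to the 6 spinal cord arrays alone, a choice made after seeing the data. There 5 of 19 Hox genes were called higher in differentiated cultures and 5 lower, where 16.8% of all probe sets were higher and 19.1% lower. In that fit the Hox shares were above those of all probe sets. This is a description: all of these genes but Hoxb3 passed the filter through spinal cord arrays alone. The probe sets they are set beside include some that are dim in spinal cord cultures. Hoxc5 (adjusted p = 4.31e-05, limma) and Hoxb3 (0.0276) were again higher, and Hoxa10 (0.000263) and Hoxa11 (0.0411) again lower. The added higher ones were Hoxa5 (log2 0.59, adjusted p = 0.0034, limma), Hoxc8 (0.76, 0.0224) and Hoxc9 (0.80, 0.00902). The added lower ones were Hoxa9 (-0.81, 0.000598), Hoxb2 (-0.77, 0.00298) and Hoxc4 (-0.50, 0.0496), whose other probe set had 1.32 (0.187). In the fit with brain arrays, Hoxb2 passed once proliferative brain replicate 1 was left out (0.0156) and Hoxc8 once differentiated brain replicate 2 was (0.0463).

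By place in the cluster, Hoxa5 and Hoxa7 had log2 differences of 0.59 and 0.53, and Hoxa9, Hoxa10 and Hoxa11 had -0.81, -2.07 and -1.18. In Hoxc, Hoxc4 had -0.50 (1.32 by its other probe set), and Hoxc5, Hoxc8 and Hoxc9 had 1.69, 0.76 and 0.80. Position in the cluster was not tested. In Hoxb, Hoxb2 had -0.77, Hoxb3 0.71, Hoxb4 -0.37, Hoxb6 -0.23 and Hoxb7 0.47. The 5 Hoxd genes tested lay between -0.16 and 0.59, and 0 of them passed in either limma fit, while at an unadjusted p 2 were higher in the fit to 6 arrays and 0 in the other. Over all 19 Hox genes the arrays of the 2 states did not overlap for 8 higher in differentiated cultures and 5 lower, where 23.4% and 27% of all probe sets had no overlap in these directions. The median log2 difference of the 19 genes was 0.29, and that of all probe sets -0.05.

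**Figure D2:**
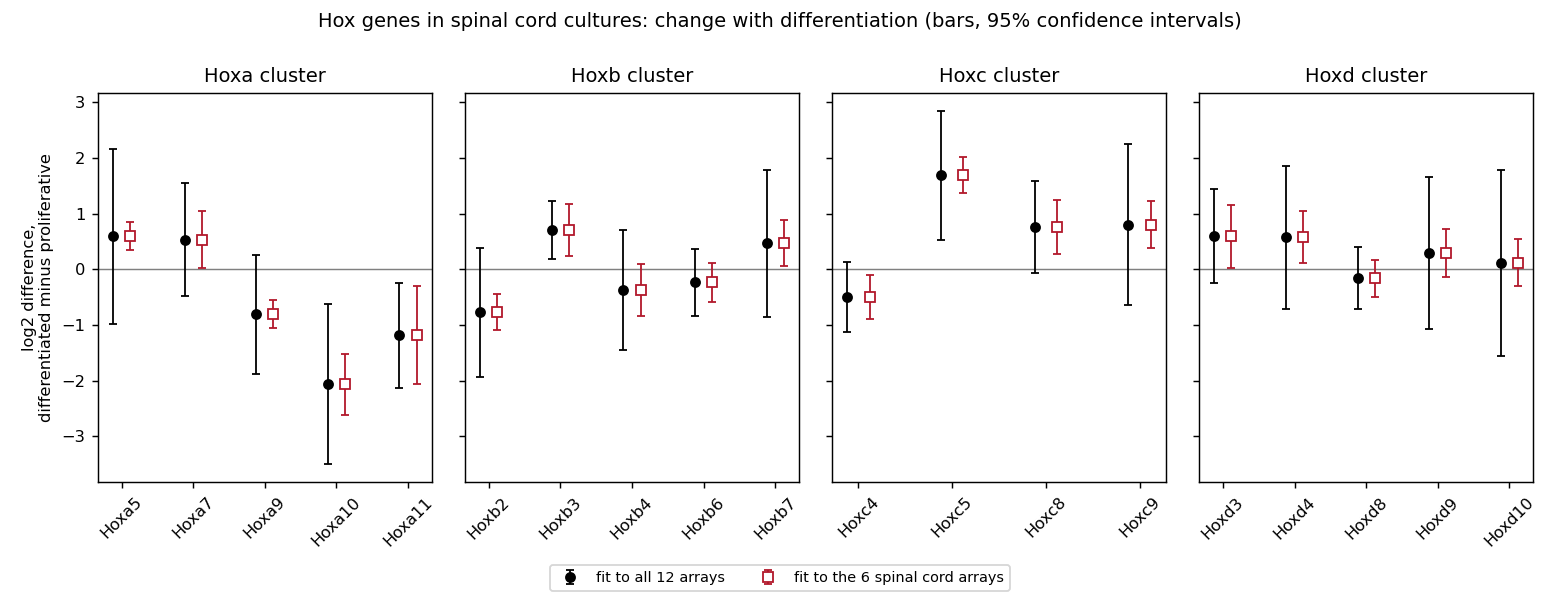
Log2 difference, differentiated minus proliferative spinal cord cultures, of the 19 Hox genes tested, by cluster and in order of paralogue number, with 95% confidence intervals from the fit to all 12 arrays (filled) and to the 6 spinal cord arrays (open). In the Hoxa cluster the points lie at 0.59 for Hoxa5, 0.53 for Hoxa7, -0.81 for Hoxa9, -2.07 for Hoxa10 and -1.18 for Hoxa11, and the intervals of the fit to 6 arrays are narrower.

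Markers of several cell types also changed with differentiation, and single arrays differed within their groups. Of the fibroblast, meningeal and mural markers, 10 of 13 tested rose and 0 fell with differentiation in spinal cord cultures (limma; 11 and 0 at an unadjusted p). Of 12 neuron markers 0 rose and 6 fell (0 and 7 at an unadjusted p). Other lists moved too: 1 of 5 oligodendrocyte precursor markers rose and 4 fell, and 1 of 8 neural progenitor markers rose and 5 fell. Of 8 astrocyte markers 5 rose and 3 fell. Of all probe sets 18.3% were higher and 22% lower. Within proliferative spinal cord cultures the summed fibroblast marker signal was 24982 on replicate 1, 49182 on replicate 2 and 42756 on replicate 3. The summed astrocyte marker signal of replicate 1, 21901, was also the lowest of the group, and its summed microglia marker signal, 4583, the highest. Replicate 1 was also the lowest array of its group for 14 of the 19 Hox genes, while it was the lowest for 37.1% of all probe sets tested. In differentiated spinal cord cultures replicate 1 was the lowest for 12 of the 19, and for 36.7% of all. Its summed fibroblast marker signal was the highest of that group, 117632, against 108757 on replicate 2 and 102479 on replicate 3. Without proliferative replicate 1 the log2 difference with differentiation was 0.27 for Hoxa7, 0.52 for Hoxc8 and 0.60 for Hoxc9, and 3 members rose and 5 fell. The part of these cells in the Hox differences was not tested.

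In brain cultures 2 Hox genes, Hoxb2 and Hoxd4, passed the test as higher with differentiation and 1, Hoxd9, as lower, where 23.7% of all probe sets were higher and 23.1% lower. All of them were dim in both brain groups, so they have no fold. In a limma fit to the 6 brain arrays alone, where 24.2% of all probe sets were higher and 24.1% lower, 0 of the 19 Hox genes passed. At an unadjusted p 1 was higher there, Hoxd4, with an adjusted p of 0.0746.

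Meis1 and Meis2, which bind DNA beside Hox and Pbx proteins, differed between the tissues in opposite directions. Meis1 read 10.27, 10.34 and 10.37 in differentiated and 10.72, 10.37 and 10.16 in proliferative spinal cord cultures, against 9.96, 9.85 and 9.90 in differentiated and 9.47, 9.69 and 9.46 in proliferative brain cultures. Meis2 read 9.03, 9.16 and 9.17 in differentiated and 10.49, 10.47 and 10.63 in proliferative spinal cord cultures, against 11.04, 11.55 and 11.48 in differentiated and 12.19, 12.39 and 11.54 in proliferative brain cultures. Meis3 read 6.80, 7.57 and 7.05 in differentiated and 7.50, 7.53 and 7.26 in proliferative spinal cord cultures, against 7.53, 7.19 and 7.32 in differentiated and 7.58, 7.39 and 7.24 in proliferative brain cultures. Meis1 was higher in spinal cord, 1.34-fold between differentiated (adjusted p = 0.0182, limma) and 1.83-fold between proliferative cultures (0.000153), and its spinal cord and brain arrays did not overlap in either state. Meis2, a gene also known from striatal and olfactory progenitors of the forebrain, was lower in spinal cord, 4.72-fold between differentiated (4.08e-07) and 2.84-fold between proliferative cultures (2.73e-05). Meis3 overlapped in all comparisons, with log2 differences of -0.21 between differentiated and 0.02 between proliferative cultures (95% intervals -0.68 to 0.26 and -0.45 to 0.49). Among all 29 members tested, 21 were higher in spinal cord and 2 lower between differentiated cultures, and 23 and 2 between proliferative ones, beside the shares of all probe sets given above. Of the higher ones, 17 between differentiated and 19 between proliferative cultures were set against a dim brain group.

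Meis2 fell with differentiation in both tissues. It was 2.67-fold lower in differentiated than proliferative spinal cord cultures (log2 -1.42, adjusted p = 4.01e-05, limma), with arrays that did not overlap. In brain cultures it was 1.61-fold lower (-0.68, 0.00773), and there 1 proliferative array, at 11.54, lay within the range of the differentiated ones. The difference of the responses was -0.73 (0.0377). Its adjusted p was 0.0508 to 0.0956 when any 1 array was left out, other than proliferative spinal cord replicate 1, differentiated brain replicate 1 and proliferative brain replicates 1 and 2. Meis1 had a log2 difference of -0.09 in spinal cord cultures (0.625) and rose 1.28-fold in brain cultures (0.36, 0.0357). With arrays centred on their medians the brain value was 0.21 (0.222), and leaving out any 1 brain array but proliferative replicate 2 put its adjusted p at 0.0598 to 0.105. For Meis1 between differentiated tissues, leaving out replicate 2 or 3 of spinal cord or of brain gave 0.0505 to 0.0628. The 2 responses of Meis1 differed by -0.45 (0.0672), and by -0.58 (0.0172) without proliferative spinal cord replicate 3 and -0.53 (0.0462) without proliferative brain replicate 2.

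The Pbx genes, whose proteins form pairs with Hox proteins and stabilise Meis proteins in the nucleus, were measured as Pbx2, Pbx3 and Pbx4. Pbx2 read 9.77, 9.86 and 9.48 in differentiated and 9.29, 9.25 and 9.16 in proliferative spinal cord cultures, against 8.93, 8.94 and 9.23 in differentiated and 9.52, 9.60 and 9.84 in proliferative brain cultures. Pbx3 read 11.71, 11.71 and 11.74 in differentiated and 11.21, 11.18 and 11.16 in proliferative spinal cord cultures, against 11.85, 11.61 and 11.49 in differentiated and 11.19, 11.51 and 10.83 in proliferative brain cultures. Pbx2 moved in opposite directions. It rose 1.38-fold in spinal cord cultures with differentiation (log2 0.47, adjusted p = 0.0134, limma) and fell 1.54-fold in brain cultures (-0.62, 0.0019), with no overlap of arrays in either tissue. The difference of the responses was 1.09 (0.000491). Between tissues Pbx2 was 1.59-fold higher in differentiated spinal cord (0.00121) and 1.34-fold lower in proliferative spinal cord (0.0256). Leaving out proliferative spinal cord replicate 2 or 3 or proliferative brain replicate 3 put the last value at 0.0541 to 0.0986. Leaving out differentiated spinal cord replicate 1 or 2 put the spinal cord response at 0.0507 to 0.0646.

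Pbx3 rose with differentiation in both tissues, 1.45-fold in spinal cord (log2 0.54, adjusted p = 0.00763, limma) and 1.39-fold in brain cultures (0.48, 0.0127). The difference of the responses was 0.06 (95% interval -0.37 to 0.49), and between the tissues it was 0.07 for differentiated (-0.23 to 0.37) and 0.01 for proliferative cultures (-0.29 to 0.31). In brain the arrays of the 2 states overlapped, and without differentiated replicate 1 or proliferative replicate 3 the adjusted p was 0.063 and 0.053, and with arrays centred on their medians 0.0584.

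Pbx4 read 4.82, 3.62 and 3.35 in differentiated and 5.45, 6.21 and 6.79 in proliferative spinal cord cultures, against 6.37, 6.43 and 6.22 in differentiated and 5.39, 5.33 and 5.12 in proliferative brain cultures. Pbx4 was thus dim in differentiated spinal cord and in proliferative brain cultures, and near the 40th percentile in the others. It was at least 1.06-fold lower in differentiated spinal cord than differentiated brain (0.00144) and was called lower with differentiation in spinal cord (0.00282), where its limit gives no fold.

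Irx1 showed the largest change with differentiation of all members tested. Irx1 read 6.80, 6.57 and 7.12 in differentiated and 10.16, 9.92 and 9.96 in proliferative spinal cord cultures, against 7.27, 7.58 and 6.82 in differentiated and 6.59, 6.18 and 6.66 in proliferative brain cultures. Proliferative spinal cord arrays stood apart from all others, of which the highest was 7.58. Irx1 fell 9.08-fold with differentiation in spinal cord cultures (log2 -3.18, SE 0.22, adjusted p = 1.65e-07, limma) and rose 1.68-fold in brain cultures (0.74, SE 0.22, 0.0146). The difference of the responses was -3.93 (95% interval -4.61 to -3.24, adjusted p = 6.27e-07). Spinal cord was 11.6-fold above brain between proliferative cultures (7.45e-08), and the log2 difference between differentiated ones was -0.39 (-0.87 to 0.09, 0.186). The rise in brain had adjusted p of 0.0542 with arrays centred on their medians, 0.0718 after quantile normalization, 0.075 without differentiated replicate 2 and 0.0607 without proliferative replicate 2. Its other probe set, like those of Hoxd3 and Irx5 and the third of Irx3, did not pass the filter.

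Irx2, next to Irx1 in the genome, fell with it in spinal cord cultures. Irx2 read 6.45, 6.72 and 6.17 in differentiated and 7.85, 7.43 and 7.75 in proliferative spinal cord cultures, against 5.96, 5.64 and 5.66 in differentiated and 5.91, 5.98 and 5.31 in proliferative brain cultures. The fall was 2.34-fold (log2 -1.23, SE 0.29, adjusted p = 0.00364, limma), with no overlap of arrays. Irx2 was dim in both brain groups. It was at least 2.96-fold higher in proliferative spinal cord than proliferative brain (0.000135), and the difference between differentiated tissues did not pass (0.0672), but did without proliferative brain replicate 3 (0.0447) and after quantile normalization (0.0374). Irx4, the remaining gene of that cluster and known from the heart ventricle, was dim in all 4 groups. The promoters of Irx1 and Irx2 printed above held 35 and 25 CG dinucleotides.

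Irx3, which helps to set progenitor domains of the ventral spinal cord, was higher in spinal cord in both states. Irx3 read 9.97, 10.40 and 10.17 in differentiated and 9.21, 10.04 and 9.72 in proliferative spinal cord cultures, against 6.07, 5.62 and 6.63 in differentiated and 6.81, 7.06 and 6.93 in proliferative brain cultures. It was 16.8-fold higher between differentiated (adjusted p = 2.56e-08, limma) and 6.61-fold higher between proliferative cultures (1.98e-06), with no overlap. It had a log2 difference of 0.52 with differentiation in spinal cord (95% interval -0.02 to 1.06, 0.117) and fell 1.77-fold in brain cultures (-0.82, 0.0151). The difference of the responses was 1.35 (0.00785). Without differentiated brain replicate 2 the brain value was -0.58 (0.0756). A second Irx3 probe set gave a log2 difference of 2.91 between differentiated (4.2e-06) and 1.46 between proliferative tissues (0.00201), and -0.77 with differentiation in brain (0.0523). Its name marks it as one whose probes may match other transcripts.

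Irx5 read 4.89, 7.08 and 5.69 in differentiated and 6.36, 5.97 and 6.92 in proliferative spinal cord cultures, against 5.03, 5.48 and 5.08 in differentiated and 3.05, 6.53 and 3.81 in proliferative brain cultures. Irx5, the neighbour of Irx3, thus scattered widely within groups, overlapped in all comparisons and passed none of the tests, with adjusted p from 0.064 to 0.626. Between proliferative tissues its log2 difference was 1.96 (95% interval 0.27 to 3.64).

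**Figure D3:**
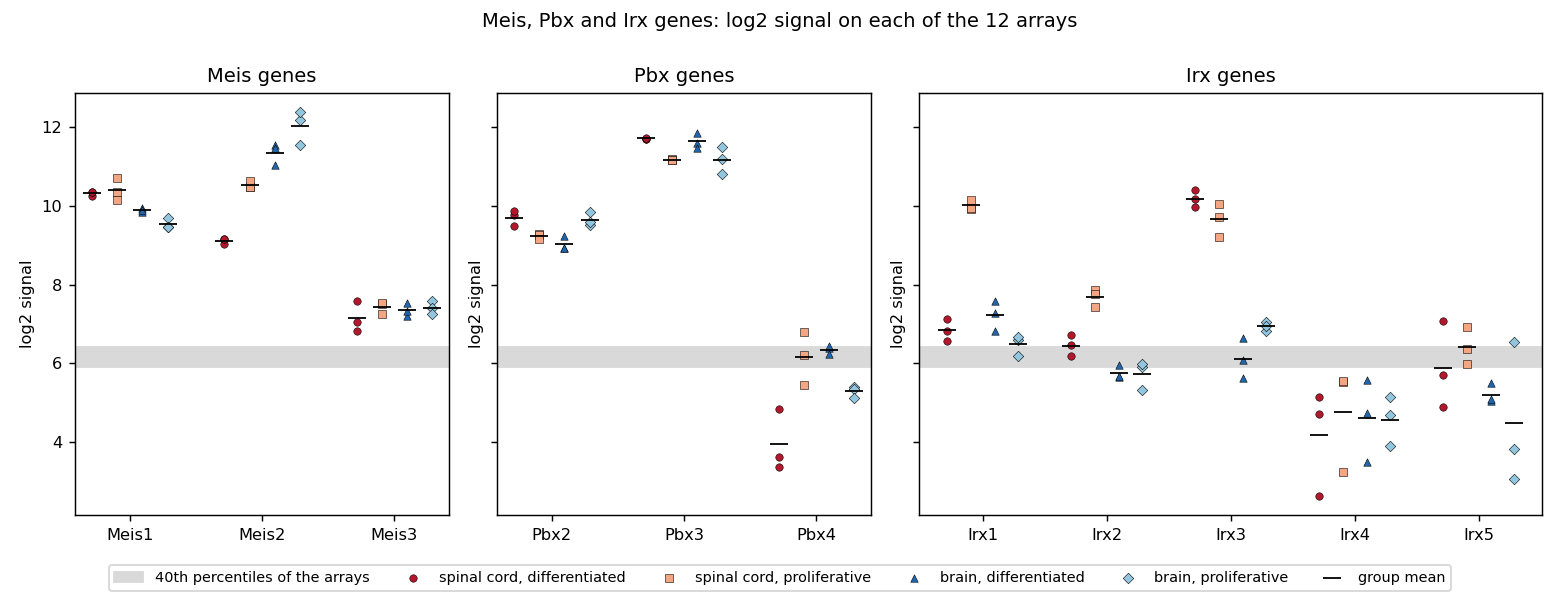
Log2 signal of the Meis, Pbx and Irx genes on each of the 12 arrays, with 1 point per array, a line at the mean of each group and a grey band over the 40th percentiles of the arrays (5.91 to 6.41). Meis2 has its lowest values in differentiated spinal cord and its highest in proliferative brain cultures, and Irx1 stands at 9.92 to 10.16 in proliferative spinal cord cultures, above all other arrays.

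Of the 10 TALE genes tested, 2 rose and 4 fell with differentiation in spinal cord cultures and 3 rose and 3 fell in brain cultures. With the Hox genes this made 4 members up and 6 down of 29 in spinal cord, and 5 up and 4 down in brain. Of all probe sets 18.3% were higher and 22% lower in spinal cord, and 23.7% and 23.1% in brain. In this fit to all arrays the members' shares were thus no higher than these. The counts depended on the fit. In the fit to the 6 spinal cord arrays alone, 5 of 19 Hox genes rose and 5 fell, and 2 of 10 TALE genes rose and 4 fell. There 16.8% of all probe sets were higher and 19.1% lower. The Hox and TALE shares were above these, in a fit chosen after seeing the data. These shares are a description, since all Hox genes tested but Hoxb3 passed the filter through spinal cord arrays alone. With the 6 brain arrays fitted alone, 0 of 19 Hox genes passed, and 4 of 10 TALE genes rose and 3 fell. Of all probe sets 24.2% were higher and 24.1% lower in that fit. In the fit to all arrays, the responses of 9 members differed between the tissues, 3 higher in spinal cord and 6 lower. Of all probe sets tested, 18.8% differed upwards and 21.7% downwards. Irx1, Irx2, Meis2 and Pbx4 were among the lower and Pbx2 and Irx3 among the higher ones.

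**Figure D4:**
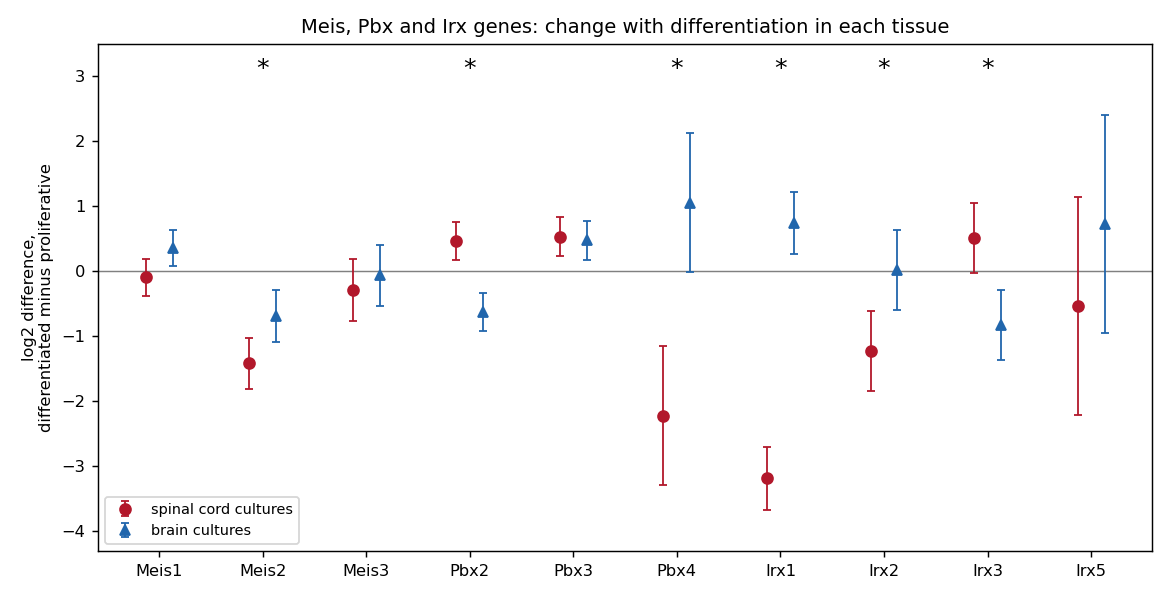
Log2 difference, differentiated minus proliferative, of the 10 Meis, Pbx and Irx genes tested, in spinal cord cultures (circles) and brain cultures (triangles), with 95% confidence intervals from the fit to all 12 arrays. A star marks the 6 genes whose 2 responses differed at an adjusted p under 0.05, with Irx1 at -3.18 in spinal cord and 0.74 in brain cultures.

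Genes that act upstream of Hox or beside it were set beside the members from lists of the same pathways. Their counts are to be read against the shares of all probe sets, 19.4% higher and 18.5% lower between proliferative tissues and 18.5% and 22.9% between differentiated ones. With differentiation these shares were 18.3% and 22% in spinal cord and 23.7% and 23.1% in brain cultures. Of 13 tested genes of retinoid and other posterior signals, 7 were higher and 3 lower in proliferative spinal cord than proliferative brain cultures, and 5 and 2 between differentiated ones. Cyp26b1, which breaks down retinoic acid, was 5.34-fold higher between proliferative cultures (adjusted p = 2.09e-05, limma), and Aldh1a3, which makes it, 4.08-fold lower (0.000144). Between differentiated cultures Crabp2, a retinoic acid carrier and cofactor, was 32.0-fold higher (5.12e-10) and Aldh1a2, which makes retinoic acid, 8.79-fold higher (8.49e-06). With differentiation in spinal cord cultures 4 of the 13 rose and 4 fell, among them Cyp26b1 at 9.68-fold lower (1.21e-06) and Aldh1a3 at 9.71-fold lower (1.85e-06).

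Polycomb proteins keep Hox clusters silent and trithorax proteins keep them active. Of 22 such genes tested, 1 was higher and 8 lower in proliferative spinal cord than proliferative brain cultures, and 4 and 4 between differentiated ones. Suz12, a core subunit of the complex that methylates histone H3, was 1.76-fold lower (adjusted p = 0.00357, limma), and Jarid2, which recruits it, 1.70-fold higher (4.96e-05), both between proliferative cultures. With differentiation 2 rose and 6 fell in spinal cord, Ezh2, the methylating subunit, by 2.28-fold (7.06e-06). In brain cultures 1 rose and 7 fell, Suz12 by 2.37-fold (0.000107) and Eed by 1.99-fold (1.31e-06). Of all probe sets 22% were lower with differentiation in spinal cord and 23.1% in brain cultures.

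Of 4 TALE genes outside the members, Tgif1, a repressor that competes for Meis-type sites, was 3.26-fold lower in proliferative spinal cord than proliferative brain cultures (adjusted p = 9.01e-08, limma) and fell 4.70-fold with differentiation in brain cultures (5.54e-09). Of 9 dorsoventral transcription factors tested, 4 were higher and 1 lower between proliferative tissues, with Nkx2-2, of the ventral progenitors that give rise to oligodendrocytes, 9.13-fold higher (8.96e-08). Between differentiated tissues 3 were higher and 4 lower, with Pax6 10.2-fold lower (9.86e-10) and Zic1 7.10-fold higher (5.86e-07). The 5 nearest coding genes on each side of the Hox and Irx clusters gave 40 tested genes. Of these 7 were higher and 10 lower between proliferative tissues, and 10 and 8 between differentiated ones, near the shares of all probe sets. Skap2, beside the Hoxa cluster, was 6.24-fold higher in proliferative spinal cord than proliferative brain cultures (1.11e-08).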

How the data were processed

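RNA of rat NSC cultures was hybridised to 12 Affymetrix Rat230_2 arrays as biotin-labelled cRNA, per the labels' protocols. The authors deposited a log2 signal for each probe set and array, and the submitters' processing notes name MAS5 and affy, without versions. Other steps by the authors are not given in the sources used here. Converted to linear signals, each array had a mean of 500 with 2% trimmed at both ends, so arrays were scaled singly and genes were not centred. No detection call entered the tests, and the number of arrays limits the precision.

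Genes were named from the platform annotation: 20826 probe sets had 1 symbol, 436 several and 9780 none, and none was named from one with several. Of the 33 member symbols, 32 matched a current RefSeq gene by Entrez ID. After removal of 57 control probe sets, those above their array's 40th percentile on at least 3 of 12 arrays were tested, 20834 in all. limma 3.58.1 in R 4.3.3 fitted all 12 arrays with a mean per group (8 residual degrees of freedom) and a mean-variance trend, with Benjamini-Hochberg adjustment over all probe sets tested. The same model was tested on simulated data. Promoters were searched with Python 3.11.15.

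The members and the gene lists were chosen with earlier results of these data known. All members are named, and of other genes at most 3 of a list and comparison, those with the largest differences among those past the threshold. Alternatives covered the filter, scaling, a pseudocount of 64, the trend, the replicate block, each array left out, the mean of a gene's probe sets and the limit for dim. Same-numbered arrays deviated from their group means with correlations of -0.12 to 0.05, so the numbers were not taken as pairs.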

Additional observations from a re-analysis of the deposited data

Results flagged for a closer look

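For 9 members the response to differentiation differed between spinal cord and brain cultures by the test of that difference itself (limma, all 12 arrays, adjusted p). The difference, spinal cord response minus brain response on the log2 scale, was -3.93 for Irx1 (6.27e-07), -0.73 for Meis2 (0.0377), 1.09 for Pbx2 (0.000491) and 1.35 for Irx3 (0.00785), and no group was dim for these. It was -3.28 for Pbx4 (0.0021), which was dim in differentiated spinal cord and proliferative brain cultures. It was -1.25 for Irx2 (0.0239), -2.40 for Hoxb2 (0.0216), -1.19 for Hoxc4 (0.0321) and 2.67 for Hoxc5 (0.0125), which were dim in both brain groups, so their brain response rests on signals below the 40th percentile.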

How the results depend on the processing

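Centring arrays on their medians moved the median of all probe sets by -0.21 between proliferative tissues, by -0.15 for differentiation in brain and by 0.23 for the difference of responses, and quantile normalization by -0.10, -0.06 and 0.11. Of 2029 single-gene values over 20 settings, 1929 kept direction and side of the threshold, 59 lost a call, 26 gained one and 15 turned sign, over 107 results that leave out genes dim in both groups compared or, for the difference of responses, in both groups of a tissue. The sign turned for small values that were not called under any of these settings. With median centring these were the difference between proliferative tissues of Meis3 (-0.19, and -0.16 with quantile normalization) and Pbx3 (-0.20), and the difference of responses of Meis3 (0.0042). Leaving out single arrays gave -0.0602 to 0.109 for Meis3 and -0.164 to 0.176 for Pbx3 between proliferative tissues, and -0.0114 to 0.170 for Pbx3 between differentiated ones. It gave -0.219 to 0.0646 for Meis1 with differentiation in spinal cord, -0.151 to 0.0292 for Meis3 in brain and -0.107 to 0.233 for the difference of responses of Pbx3.

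Members called lower between differentiated tissues numbered 1 with the filter at the array median, in place of 2. Members called higher with differentiation in spinal cord numbered 10 with a pseudocount of 64 and 7 in the fit to 6 arrays, in place of 4. In brain 2 were higher with median centring, in place of 5. Leaving out single arrays gave 1 to 2 lower in each tissue comparison, 1 to 5 higher and 3 to 6 lower in spinal cord, 1 to 5 higher in brain, and 2 to 8 lower for the difference of responses. The cause was not tested, other than that fewer arrays leave fewer degrees of freedom.

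With the replicate number as a block, 24 members were higher and 2 lower between proliferative tissues, Irx5 now passing (0.0448), and 4 rose and 5 fell with differentiation in spinal cord, Hoxa11 no longer passing (0.0517). The other counts of calls were as without the block. Same-numbered arrays correlated at -0.12 to 0.05 and 0 of 12 arrays correlated best with their own number. Against a group with all arrays under the 40th percentile, a fold is a lower bound.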

Other observations

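One probe set lies outside the rule because its symbol, Hoxa3l1, carries a suffix. Hoxa3l1 read 8.46, 7.94 and 8.41 in differentiated and 8.68, 7.75 and 8.48 in proliferative spinal cord cultures, against 4.63, 5.11 and 4.48 in differentiated and 2.95, 4.58 and 1.55 in proliferative brain cultures. All brain values lie under the 40th percentile, so a fold would be a lower limit, which was not calculated for this probe set. Hoxa3l1 passed the test as higher in spinal cord between differentiated (adjusted p = 0.00026, limma) and proliferative cultures (1.13e-05). The antisense transcript Hoxa11-as did not pass the filter.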
